A study of Mus musculus with 42 samples.

Results

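Transcript levels of 10 glucocorticoid-induced genes were followed in 7 tissues of mice with and without the long noncoding RNA *Tug1*. The genes were *Fkbp5*, *Zbtb16*, *Tsc22d3*, *Sgk1*, *Klf9*, *Cdkn1a*, *Mt1*, *Mt2*, *Errfi1* and *Sult1a1*, that is, 10 of the 26653 genes in the deposited table. They were selected by their values in the same wild-type (WT) and knockout (KO) groups that are described here. Their levels and changes are therefore given as a description, with no test.

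Corticosterone is the main glucocorticoid of the mouse. It is released by the adrenal cortex with a daily rhythm and during stress and fasting, and it binds the glucocorticoid receptor, encoded by *Nr3c1*. The receptor is held in the cytoplasm by a chaperone complex, moves to the nucleus once it has bound hormone, and activates genes that carry glucocorticoid response elements. In liver and heart this response is known for its effects on fuel metabolism, and in spleen for its effects on leukocytes.

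The study asked which genes change when the *Tug1* locus is deleted. RNA had been sequenced from 42 samples of male mice, 22 WT and 20 KO. Testes had 4 WT and 3 KO samples, prostate 3 and 2, and spleen, eye, heart, liver and mouse embryonic fibroblasts (MEFs) 3 and 3 each. All mice were on the C57BL/6J (N3) background. KO mice carried the Tug1_tm1.1Vlcg allele on both chromosomes, in which a lacZ reporter stands in place of the *Tug1* sequence, and WT mice had both alleles intact. The deletion is present in all cells from conception, so that no cell type or time point was targeted. MEFs came from male embryos of E14.5 litters and were cultured to passage 2, and the other 6 tissues were frozen after dissection from adult mice. Neither exact ages nor the hour of dissection are given in the sources used here, nor whether several tissues came from the same mouse. Corticosterone was not measured in these samples.

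The table holds 1 value per genotype and tissue, in fragments mapped per kilobase of transcript and scaled to sequencing depth (FPKM), with the samples of a group already combined. No spread between samples could be computed, and every difference below is one between 2 pooled values. Change means log2((KO + 0.1)/(WT + 0.1)). A gene was called past the fold when it differed by more than 1.5 times on that scale, which is 0.58 in log2 units, among genes with a completed estimate and a mean of at least 1 FPKM over both groups. The depth of the samples is unknown, and the pooled values differ between groups in their sum, from 378014 FPKM in WT eye to 1124495 FPKM in WT liver.

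*Tug1* itself followed the labels in all 7 tissues. It stood between 11.2 FPKM in WT heart and 27.7 FPKM in WT testes, and between 0.00753 and 0.402 FPKM in the KO groups. Markers of each tissue were also highest in the tissue of that name. Summed over 6 markers each, they reached 41129 FPKM in WT testes, 25647 FPKM in prostate, 1567 FPKM in spleen, 11776 FPKM in eye, 16822 FPKM in heart, 35416 FPKM in liver and 3789 FPKM in MEFs. *Tgm4* in prostate and *Serpina1a* in liver are listed at 0 with a status of too little data, although both are defining genes of those organs. Their 0 was not read as a level.

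Counted by the fold, more of the 10 genes stood higher in KO in heart and liver than in spleen, prostate and eye, and none did in testes and MEFs. In heart all 10 genes were higher in KO, 7 of them past the fold, with a median change of 0.72. In liver all 10 were higher, 6 past the fold, with a median change of 0.99. The medians over all genes were 0.03 in heart and -0.02 in liver, where 0.836% and 2.50% of all tested genes were past the fold in that direction. Because the genes were selected on this contrast, nothing is read from the gap between the counts and these shares. In these bulk tissues, more transcript per cell and more cells of an expressing type cannot be told apart.

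Rescaling each group to a common sum moved the median of all genes in liver up by 0.16. It moved the upward share of all calls from 52.9% to 80.4% in liver, from 37.5% to 22.6% in heart, from 60.5% to 78.7% in testes and from 30.7% to 43.1% in MEFs. Taking the median change of all genes off each change moved the share to 72.4% in testes. After rescaling, 8 of the 10 genes were past the fold in liver, 6 in heart and none in testes or MEFs.

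The count was 4 of 9 genes past the fold in spleen, with a median change of 0.35, where *Zbtb16* missed the filter on low values. It was 3 of 10 in prostate (median 0.44) and 3 of 10 in eye (median 0.37), where all 10 genes were higher in KO. The shares of all genes past the fold upward were 4.89% in spleen, 2.38% in prostate and 2.62% in eye. In testes no gene was past the fold, the median change was 0.10, and the share over all genes was 1.14% upward and 0.747% downward. In MEFs 8 of the 10 genes passed the filter, none was past the fold and the median change was -0.04, with 0.975% of all genes past the fold upward and 2.20% downward. None of the 10 genes was past the fold downward in any tissue. The downward shares over all genes were 0.675% in prostate, 1.08% in spleen, 0.854% in eye, 1.40% in heart and 2.22% in liver.

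**Figure D1:**
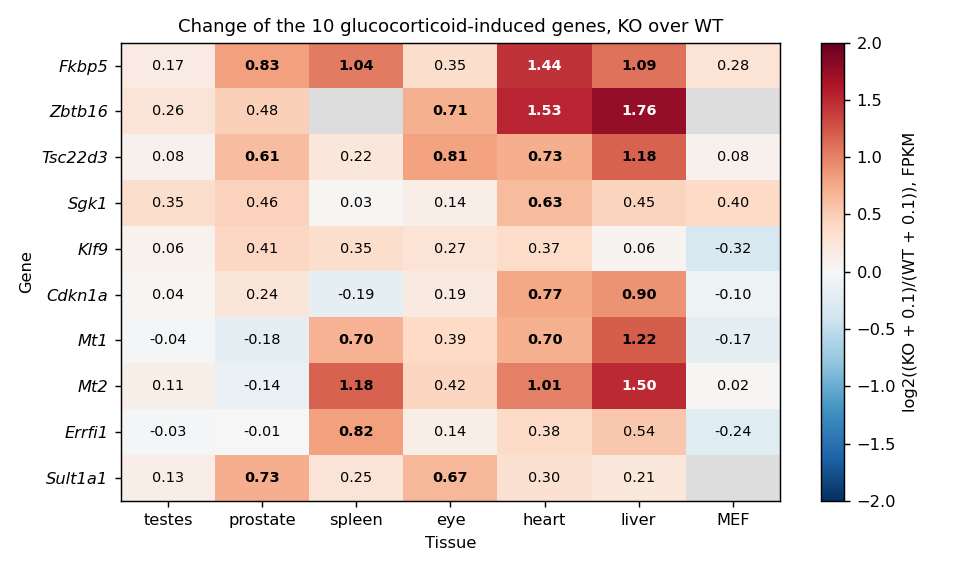
Change of each of the 10 genes (rows) in each tissue (columns), as log2((KO + 0.1)/(WT + 0.1)) of pooled FPKM, with red for higher and blue for lower in KO, bold figures for changes past 1.5 times and grey for values under the filter. The heart and liver columns hold 7 and 6 bold figures, the testes and MEF columns none.

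Of the 59 combinations of gene and adult tissue that passed the filter, 53 were higher in KO and 23 were past the fold. Between 36.4% of all tested genes, in testes, and 58.6%, in heart, were higher in KO in these tissues. The values closest to the limit were those of *Tsc22d3* in prostate and *Sgk1* in heart just inside it, at 1.53 and 1.54 times, and of *Errfi1* in liver and *Zbtb16* in prostate just outside it, at 1.46 and 1.40 times. Among the 9 genes that passed the filter in all 6 adult tissues, *Fkbp5*, *Tsc22d3*, *Sgk1*, *Klf9* and *Sult1a1* were higher in KO in each of the 6, though *Sgk1* in spleen only by 0.03. With values rescaled to a common sum, *Sgk1* in spleen lay just under 0. That pattern, a difference of any size upward in all 6, was met by 2.44% of the 9196 genes with values in all 6, and it is part of what the genes were selected on.

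*Fkbp5* encodes a co-chaperone that lowers the hormone affinity of the glucocorticoid receptor and is itself induced by it, so that it acts as a feedback brake (chr17:28399094-28517527, GRCm38, minus strand). In heart it measured 5.78 FPKM in WT and 15.9 FPKM in KO, a difference of 2.72 times that ranked 8 from the top among 12682 genes. It measured 12.3 and 26.2 FPKM in liver, 14.8 and 30.4 FPKM in spleen, and 12.4 and 22.1 FPKM in prostate. All 4 of these were past the fold. The differences were smaller in eye (6.72 and 8.62 FPKM), MEFs (13.1 and 15.9 FPKM) and testes (22.4 and 25.2 FPKM). The heart, which had the lowest WT level of the 7 tissues, had the greatest change of this gene.

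*Zbtb16* encodes a zinc finger transcriptional repressor, also named PLZF (chr9:48654297-48836222, minus strand). It had the greatest change of the 10 genes in both heart and liver. In liver it measured 1.61 FPKM in WT and 5.71 FPKM in KO, which is 3.39 times, and in heart 5.08 and 14.8 FPKM, which is 2.88 times and rank 7 of 12682. In eye it measured 1.23 and 2.06 FPKM, also past the fold, though not with a pseudocount of 1, when its change was 0.46. Prostate held more of it in WT (6.11 FPKM) than heart did, with 8.58 FPKM in KO. It was low in testes (1.10 and 1.33 FPKM) and below the filter in spleen, at 0.586 and 1.06 FPKM. In MEFs it was at 0.00756 and 0.00177 FPKM, too low to compare.

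*Tsc22d3* encodes GILZ, the glucocorticoid-induced leucine zipper protein that restrains NF-kB and AP-1 (chrX:140539528-140600659, minus strand). It measured 80.4 FPKM in WT liver and 183 FPKM in KO liver, 78.5 and 130 FPKM in heart, 25.6 and 44.8 FPKM in eye, and 24.0 and 36.8 FPKM in prostate, each past the fold. Spleen had the highest WT level, 129 FPKM, and 150 FPKM in KO. In MEFs (12.0 and 12.7 FPKM) and testes (9.42 and 9.96 FPKM) both groups were low and nearly equal. *Tsc22d3* and *Fkbp5* were the only members past the fold in 4 of the adult tissues each, and they shared heart, liver and prostate.

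*Klf9* encodes a Krüppel-like transcription factor that is induced by glucocorticoids and thyroid hormone (chr19:23141226-23168134, plus strand). It was past the fold in no tissue. Its greatest difference was in prostate, at 12.8 and 17.1 FPKM, followed by heart (33.9 and 43.8 FPKM), spleen (4.52 and 5.77 FPKM) and eye (19.8 and 23.9 FPKM). In liver, where its WT level as deposited was highest, it measured 61.6 and 64.3 FPKM, and in testes 17.0 and 17.8 FPKM. In MEFs it was lower in KO, 7.26 FPKM against 5.79 FPKM. Liver thus combined the greatest median of the 10 genes with 1 of the smallest changes of *Klf9*, 0.06.

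*Sgk1* encodes a serine/threonine kinase that acts on ion channels and transporters and responds to glucocorticoids, mineralocorticoids and cell stress (chr10:21882184-21999903, plus strand). As deposited it was past the fold in heart alone, at 33.7 FPKM in WT and 52.1 FPKM in KO. With values rescaled to a common sum it was past the fold in liver, at a change of 0.61, and no longer in heart, at 0.55. The values were 196 and 269 FPKM in prostate, 15.8 and 21.6 FPKM in liver, 15.7 and 20.7 FPKM in MEFs, and 3.06 and 3.93 FPKM in testes. In eye (130 and 143 FPKM) and spleen (19.9 and 20.3 FPKM) the groups differed by 1.10 and 1.02 times. *Sgk1* was the member with the greatest change in both testes and MEFs, the tissues in which the set as a whole was closest to WT.

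RefSeq promoters, taken as 250 bases before to 50 bases after each annotated start on GRCm38.p6, were searched on both strands for the palindromic glucocorticoid response element (GNACA and TGTNC around any 3 bases), the hexamer AGAACA, which resembles 1 arm of it, the metal response element as TGCACNC or TGCGCNC, and the E-box CACGTG. The hexamer can overlap the palindrome. Of the 10 genes, 9 had a promoter in the table, 18 promoters in all, and *Zbtb16* had none. The palindrome was found in 2 of these 18, at *Mt1* and at 1 of the 6 *Sgk1* starts, and in 0.475% of all 32851 promoters. The *Sgk1* stretch below is shown because it holds that match, in capitals, beginning at position -188. It runs from -250 to -11 on the plus strand, chr10:21993640-21993879, and lies within the *Sgk1* gene ahead of an alternative start.

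Sgk1: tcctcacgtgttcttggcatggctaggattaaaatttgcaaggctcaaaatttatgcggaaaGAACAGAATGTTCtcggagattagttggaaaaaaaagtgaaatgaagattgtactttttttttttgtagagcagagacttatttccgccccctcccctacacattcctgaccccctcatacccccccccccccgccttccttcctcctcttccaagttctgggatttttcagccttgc

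The table does not separate the starts of a gene, so its values cannot be assigned to this one. The hexamer was found in 5 of the 18 promoters, at *Sgk1*, *Tsc22d3* and *Sult1a1*, and in 19.0% of all promoters. The E-box was found in 2 of the 18, at *Fkbp5*, at -169, and at *Sgk1*, and in 7.15% of all promoters. The metal form TGCGCNC was found in 3 of the 18, at *Mt1*, *Mt2* and *Sgk1*, and in 15.4% of all promoters. TGCACNC was found in 2 of the 18, at *Mt1* and *Mt2*, and in 12.6% of all promoters. *Klf9*, *Cdkn1a* and *Errfi1* held none of these motifs in their windows, which says only that the letters are not there.

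*Mt1* and *Mt2* encode metallothioneins, small cysteine-rich proteins that bind zinc and copper and are induced by metals as well as by glucocorticoids. They lie side by side on the plus strand, *Mt2* at chr8:94172664-94173568 and *Mt1* at chr8:94179082-94180327, with 5513 bp between them. Their promoters are shown because both genes carried 3 or more metal response elements between -250 and +50, a feature of 1.97% of all promoters, and because the same 3 tissues held their changes past the fold. In the stretches from -250 to -11 (chr8:94178839-94179078 for *Mt1* and chr8:94172368-94172607 for *Mt2*, plus strand), capitals mark the glucocorticoid response element of *Mt1* at -94 and the metal response elements, at -23 in *Mt1* and at -223, -128 and -50 in *Mt2*. An exon of another gene overlaps the *Mt2* stretch.

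Mt1: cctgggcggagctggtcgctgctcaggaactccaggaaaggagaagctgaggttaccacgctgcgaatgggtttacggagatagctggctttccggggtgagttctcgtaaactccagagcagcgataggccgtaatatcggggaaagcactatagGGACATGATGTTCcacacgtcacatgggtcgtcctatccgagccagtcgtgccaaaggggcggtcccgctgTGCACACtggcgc
Mt2: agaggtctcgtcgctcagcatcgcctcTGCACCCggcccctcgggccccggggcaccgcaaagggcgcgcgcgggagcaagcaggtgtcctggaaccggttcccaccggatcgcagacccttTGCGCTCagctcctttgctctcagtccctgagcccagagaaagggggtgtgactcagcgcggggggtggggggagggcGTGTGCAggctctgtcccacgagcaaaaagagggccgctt

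*Mt2* measured 13.7 FPKM in WT liver and 38.8 FPKM in KO liver, 14.2 and 32.3 FPKM in spleen, and 30.4 and 61.1 FPKM in heart. *Mt1* measured 60.8 and 141 FPKM in liver, 31.6 and 51.4 FPKM in spleen, and 199 and 324 FPKM in heart. In each of these tissues *Mt2* differed by more than *Mt1*, by 2.83 against 2.32 times in liver, 2.26 against 1.62 times in spleen and 2.01 against 1.63 times in heart. In eye *Mt1* measured 163 and 214 FPKM and *Mt2* 109 and 146 FPKM, short of the fold.

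Prostate went the other way. Its metallothionein levels were far above those of the other tissues, with *Mt1* at 5432 FPKM in WT and 4788 FPKM in KO, and *Mt2* at 4067 and 3699 FPKM. In testes *Mt1* measured 588 and 571 FPKM and *Mt2* 203 and 220 FPKM, and in MEFs 63.4 and 56.3 FPKM and 23.1 and 23.4 FPKM. The lower *Mt1* value in KO testes turned to a slightly higher one, 0.06, with values rescaled to a common sum. The 2 genes had the highest likeness of any pair of the 8 members that passed the filter in all 7 tissues, a Pearson *r* of 0.98 between their changes over 7 tissues. Metallothionein transcripts are similar in sequence, and how fragments that match both were shared out is not given in the sources used here.

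*Cdkn1a* encodes the cell cycle inhibitor p21, a target of p53 that glucocorticoids also induce (chr17:29090976-29100727, plus strand). It was past the fold in heart, at 8.30 FPKM in WT and 14.2 FPKM in KO, and in liver, at 0.847 and 1.66 FPKM, where it was close to the filter and short of the fold with a pseudocount of 1, at a change of 0.53. In prostate (4.30 and 5.10 FPKM), eye (7.37 and 8.39 FPKM) and testes (6.28 and 6.46 FPKM) the values were slightly higher in KO, and in spleen lower (4.64 and 4.05 FPKM). MEFs held far more of it than any tissue, 379 FPKM in WT and 352 FPKM in KO. Of 12 other p53 targets, 11 each passed the filter in heart and liver, with median changes of 0.09 and 0.01. None of these was past the fold. Over all tested genes the shares in heart and liver were 0.836% and 2.50% upward and 1.40% and 2.22% downward, so few calls among 11 genes would be looked for.

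*Errfi1* encodes MIG6, a feedback inhibitor of the epidermal growth factor receptor (chr4:150853919-150868892, plus strand). As deposited it was past the fold in spleen only, at 8.72 and 15.5 FPKM. Its highest level was in liver, 552 FPKM in WT and 804 FPKM in KO, a change of 0.54 as deposited and, past the fold, 0.70 after rescaling. The values were 10.5 and 13.7 FPKM in heart, 8.97 and 9.87 FPKM in eye, 12.21 and 12.15 FPKM in prostate, 7.68 and 7.53 FPKM in testes, and 30.2 and 25.6 FPKM in MEFs. The sign of its differences in testes and prostate, both under 0.03 in size, depended on the scaling.

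*Sult1a1* encodes a sulfotransferase that conjugates phenols (chr7:126672865-126676432, minus strand). It was past the fold in prostate, at 4.10 FPKM in WT and 6.88 FPKM in KO, and in eye, at 7.62 and 12.2 FPKM. In liver, its main site of expression, it measured 316 and 366 FPKM, in heart 29.0 and 35.8 FPKM, in spleen 9.20 and 11.0 FPKM, and in testes 3.89 and 4.27 FPKM. In MEFs it was near 0, at 0.0696 and 0.0717 FPKM. *Sgf29* overlaps it on the opposite strand, and the strand setting of the authors' quantification is not given in the sources used here. The same limit holds for *Fkbp5*, *Cdkn1a*, *Mt2* and *Errfi1*, which annotated genes on the opposite strand also overlap.

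**Figure D2:**
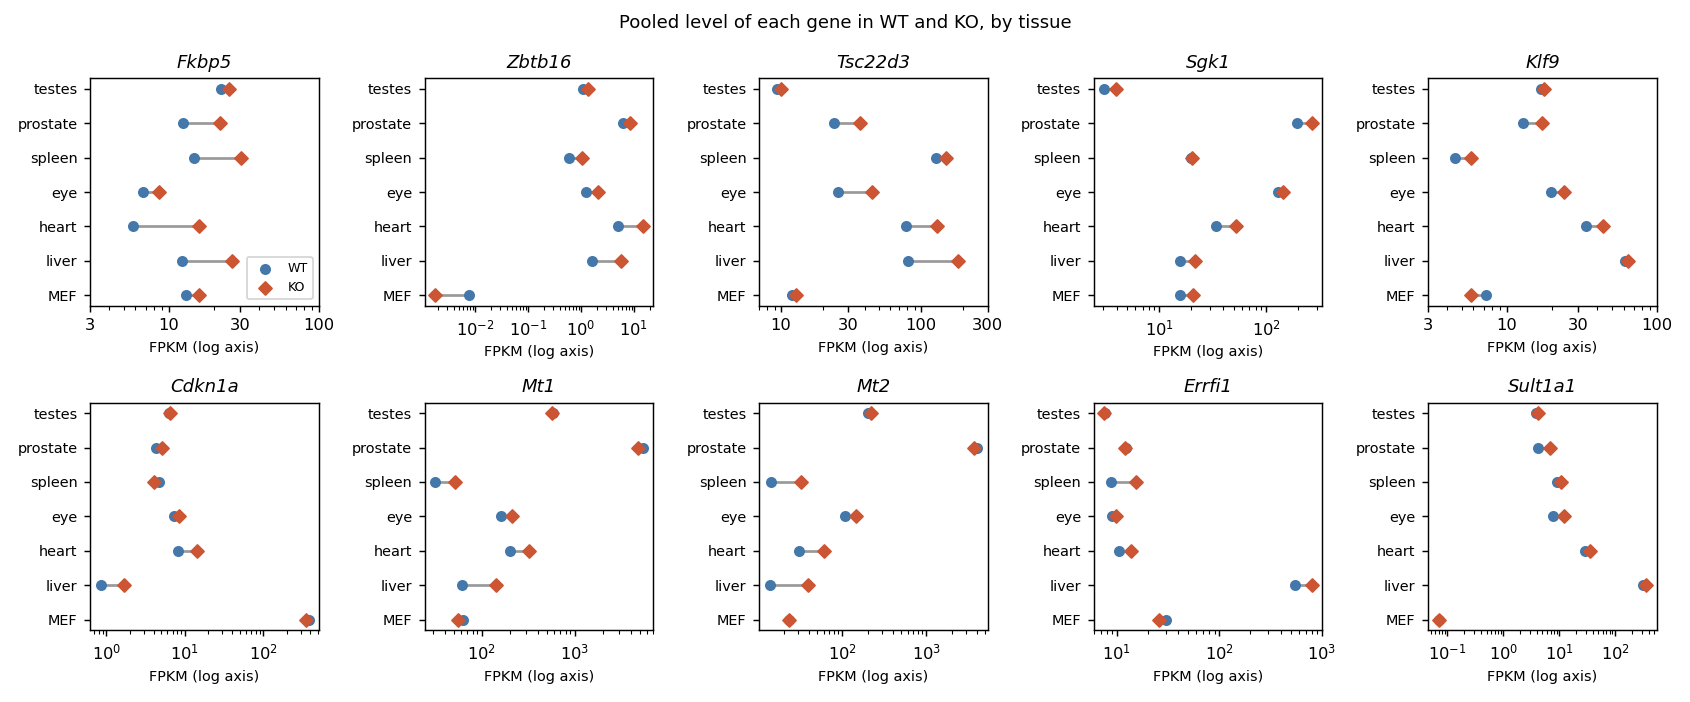
Pooled level of each gene in FPKM on a log axis, with 1 row per tissue, blue circles for WT and orange diamonds for KO; each point is 1 pooled value, so there is no error bar. In *Fkbp5* and *Tsc22d3* the heart and liver diamonds lie well to the right of the circles, whereas for *Mt1* in prostate the diamond (4788 FPKM) lies to the left of the circle (5432 FPKM).

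Several changes of these genes lay at the upper end of all changes in a tissue. In heart 7 of the 10 and in liver 6 of the 10 had under 1% of all tested genes above them. The number was 1 of 9 in spleen, for *Mt2*, and 0 in prostate, eye, testes and MEFs. The width of the distribution differed between tissues: 95% of genes had a change below 0.27 in heart and below 0.57 in spleen, so that a like change stood further out in heart. *Fkbp5*, for example, had 0.055% of genes above it in heart at a change of 1.44 and 1.42% above it in spleen at 1.04. As the 10 genes were selected on this contrast, their places are given as a description, and nothing is read from them.

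**Figure D3:**
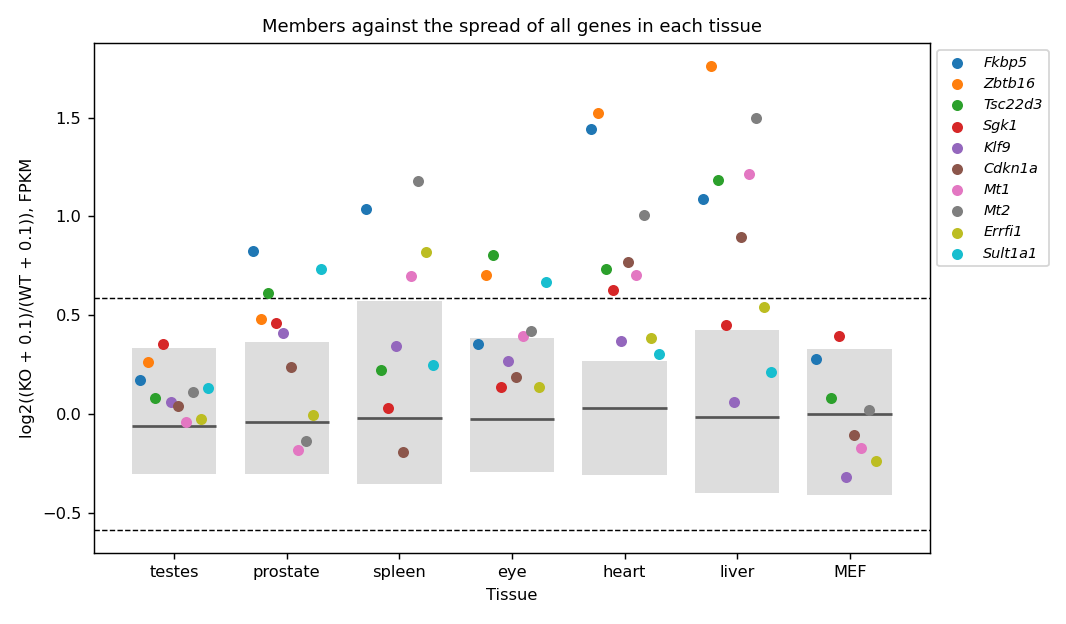
Change of each of the 10 genes (coloured points, log2 of KO over WT with 0.1 FPKM added) in each tissue over the middle 90% of all genes that passed the filter (grey bars, with the median as a line); dashed lines mark 1.5 times. In heart all 10 points lie above the grey bar, which ends at 0.27, and in MEFs only *Sgk1*, at 0.40, does so. The 10 genes were selected on this contrast.

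For levels across tissues, the values of each group were rescaled to sum to 1000000. No spread between samples can be given, so neighbours in these orders cannot be called different. The WT level of *Fkbp5* varied least, 3.26 times between spleen and heart, and that of *Klf9* 5.89 times between heart and spleen. *Tsc22d3* varied 20.8 times between spleen and testes, *Errfi1* 46.6 times between liver and testes, and *Sgk1* 82.0 times between eye and testes. *Mt1* and *Mt2* were highest in prostate and lowest in liver, 165 and 552 times apart. *Sult1a1* was highest in liver and *Zbtb16* in prostate, both being lowest in MEFs. *Cdkn1a* ran opposite to these, highest in MEFs and lowest in liver, 999 times apart.

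MEFs were the only cells grown outside the animal, in culture medium. Of the 8 genes that passed the filter there, *Sgk1*, *Fkbp5*, *Tsc22d3* and *Mt2* were higher in KO by 0.40, 0.28, 0.08 and 0.02, and *Klf9*, *Errfi1*, *Mt1* and *Cdkn1a* lower, with changes of -0.32, -0.24, -0.17 and -0.10. For *Klf9* and *Errfi1* the signed change in MEFs lay below that in every adult tissue, which holds for 2 of 8 genes, beside 16.9% of the 8865 genes with values in all 7 tissues. For the other 6, the MEF change lay within the range over the adult tissues. By WT level rescaled across tissues, MEFs ranked 1 of 7 for *Cdkn1a*, 2 for *Errfi1* and 3 for *Fkbp5*, and 5 or 6 for the other 5 genes.

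The receptor itself differed by at most 0.17 in log2 units between genotypes. *Nr3c1* measured 39.0 FPKM in WT liver and 34.6 FPKM in KO liver, 25.0 and 23.1 FPKM in heart, 29.4 and 27.5 FPKM in spleen, 14.7 and 15.0 FPKM in eye, 8.65 and 9.21 FPKM in prostate, 3.30 and 3.09 FPKM in testes, and 12.6 and 12.5 FPKM in MEFs. In heart and liver, where most of the 10 genes were higher in KO, it was slightly lower, with changes of -0.11 and -0.17. The mineralocorticoid receptor gene *Nr3c2*, whose product binds the same hormone, differed by at most 0.20 in every tissue with a value over the filter except spleen, where it measured 1.42 and 0.975 FPKM.

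*Hsd11b1* encodes the enzyme that regenerates active glucocorticoid inside cells. It was past the fold in prostate, at 1.45 and 2.55 FPKM, and in eye, at 1.56 and 2.83 FPKM. It was not past it in liver, its main site, at 862 and 749 FPKM, nor in heart (14.2 and 15.7 FPKM) or spleen (33.0 and 31.8 FPKM). *Hsd11b2*, whose product inactivates the hormone, was below the filter in all 7 tissues.

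Of the receptor's chaperones, 3 of 5 were past the fold in spleen, where the upward share over all genes was 4.89%. None was past it elsewhere with values as deposited, though *Hsp90aa1* in liver was close to the limit, at a change of 0.55. *Stip1* measured 41.6 and 78.3 FPKM in spleen, *Fkbp4* 51.0 and 86.9 FPKM, and *Hsp90aa1* 148 and 229 FPKM, while *Hsp90ab1* and *Ptges3* had changes of 0.48 and 0.45 there. Of the 16 genes on the list of receptor, cofactors and steroid enzymes, 15 passed the filter in spleen and 3 were past the fold, with a median change of -0.01. In heart 14 of 15 were higher in KO, none past the fold, with a median of 0.18, and in liver 11 of 15, none past the fold, with a median of 0.14.

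Of 23 other genes that glucocorticoids are known to induce, 22 were in the table, and the list was drawn up from general knowledge with earlier results of these data known. Past the fold upward were 3 of 18 in heart, 4 of 17 in liver, 4 of 16 in spleen, 5 of 19 in eye, 4 of 16 in prostate, 2 of 13 in testes and 1 of 12 in MEFs. Past the fold downward were 2 in heart, 3 in liver, 1 in MEFs and none in the other tissues. Over all genes the upward shares, in the order of the upward counts, were 0.836%, 2.50%, 4.89%, 2.62%, 2.38%, 1.14% and 0.975%. The downward shares over all genes were 1.40% in heart, 2.22% in liver and 2.20% in MEFs. The medians of this list were 0.23 in heart, 0.41 in liver, 0.14 in spleen, 0.28 in eye, 0.15 in prostate, 0.17 in testes and 0.13 in MEFs. They are not set against those of the 10 genes, which were selected on these values.

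In heart, *Fam107a* measured 2.47 and 8.09 FPKM, and *Ddit4*, which encodes an inhibitor of the mTOR pathway, 21.0 and 45.3 FPKM. In liver *Ddit4* measured 3.63 and 14.6 FPKM, a change of 1.98 that exceeded that of each of the 10 genes. *Lcn2*, which encodes an iron-binding acute phase protein, was past the fold in 5 tissues, among them testes (168 and 368 FPKM) and spleen (14.1 and 37.6 FPKM). *Pdk4*, which encodes a kinase that restrains glucose oxidation, measured 4.23 and 12.9 FPKM in eye and 3.58 and 7.66 FPKM in spleen.

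Genes of liver glucose production did not move as 1 group. *Tat*, an amino acid degrading enzyme used as a classic marker of hepatic glucocorticoid action, measured 1289 and 2301 FPKM. *Pck1*, the rate-limiting enzyme of gluconeogenesis, measured 1672 and 2328 FPKM, short of the fold, while *G6pc*, which releases free glucose, was lower in KO at 425 and 261 FPKM. The transcriptional repressor *Bcl6* was lower in KO liver too, at 27.1 and 10.6 FPKM, and so was *Nfil3*, at 13.2 and 8.28 FPKM. *Dusp1*, a phosphatase induced by glucocorticoids as well as by growth factors, was lower in KO in all 6 adult tissues, with changes between -0.57 and -0.20 and none past the fold.

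**Figure D4:**
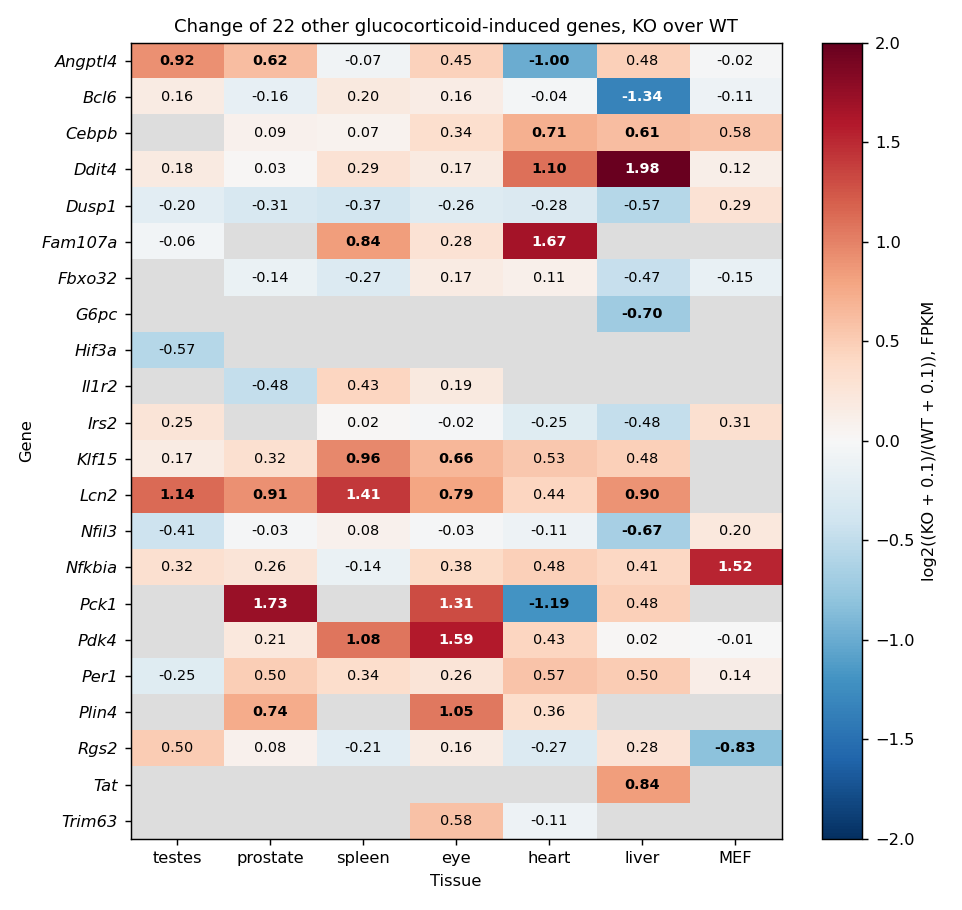
Change of 22 other glucocorticoid-induced genes (rows) in each tissue (columns), drawn as log2((KO + 0.1)/(WT + 0.1)) of pooled FPKM, with bold figures past 1.5 times and grey under the filter. *Ddit4* (1.10 and 1.98) is red in heart and liver like the 10 genes, while *Bcl6* (-1.34 in liver) and *Pck1* (-1.19 in heart) are blue.

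Inflammatory genes that glucocorticoids are known to repress were past the fold upward in MEFs in 7 of 11 cases. The share over all tested genes there was 0.975%. *Il1b* measured 0.247 and 5.36 FPKM, *Cxcl1* 0.383 and 5.77 FPKM, and *Tnf* 0.242 and 3.53 FPKM. Each of these was under 1 FPKM in WT and passed the filter only through its KO value. The filter favours upward calls among such genes. The remaining calls had both values over 1 FPKM. They were *Ccl2* (28.8 and 173 FPKM), *Cxcl10* (2.67 and 6.26 FPKM), *Il6* (2.81 and 4.35 FPKM) and *Ccl5* (1.31 and 2.84 FPKM). The list was chosen with earlier results of these data known, so nothing is read from the count. *Nfkbia*, on the induced list but also a target of NF-kB, measured 10.9 and 31.5 FPKM in MEFs. In adult tissues *Il1b* was lower in KO in heart (3.77 and 1.65 FPKM), liver (6.00 and 2.73 FPKM) and spleen (25.2 and 13.2 FPKM). *Vcam1*, an adhesion molecule on the same list, was higher in KO liver (4.72 and 9.66 FPKM), prostate (1.03 and 1.77 FPKM) and testes (15.0 and 23.0 FPKM).

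Other genes linked to metals, *Gclc*, *Mt3*, *Mtf1*, *Slc30a1*, *Slc39a10* and *Slc40a1*, stayed within the fold in spleen, heart and liver. Of these 6 genes 5, 6 and 5 passed the filter in these tissues, and their medians were -0.06, 0.10 and -0.03. The upward shares over all genes there were 4.89%, 0.836% and 2.50%, so few calls among so few genes would be looked for. Whether metals induce each of the 6 genes in these tissues was not tested. The single call among the 7 tissues was *Slc40a1*, the iron exporter ferroportin, at 0.792 and 1.41 FPKM in testes.

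Clock genes and immediate early genes can shift with the hour and the handling at dissection, and their values are given beside the counts for this reason. *Per2*, which is both a clock gene and glucocorticoid-responsive, measured 3.92 and 8.67 FPKM in heart and 1.03 and 1.73 FPKM in prostate. *Arntl*, its antiphase partner, measured 2.40 and 1.57 FPKM in heart. In liver *Bhlhe41* (4.66 and 2.19 FPKM) and *Bhlhe40* (125 and 73.6 FPKM) were lower and *Ciart* (11.3 and 18.8 FPKM) was higher. *Dbp* and *Nr1d1*, which swing widely over the day, were within the fold in all 7 tissues. *Nr1d1* was nonetheless lower in KO liver, at 68.3 and 50.1 FPKM, a change of -0.45. *Arntl* missed the filter in liver, at 1.01 and 0.622 FPKM. Over the list, 3 of 14 genes were past the fold in heart, 3 of 13 in liver, 1 of 15 in prostate and none in the other 4 tissues. The shares over all genes were 0.836% upward and 1.40% downward in heart, and 2.50% and 2.22% in liver. In prostate they were 2.38% and 0.675%.

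The median of the immediate early genes was below 0 in the 5 tissues in which any of the 10 genes was past the fold. In liver 4 of 9 and in heart 3 of 9 were past the fold downward, with medians of -0.36 and -0.40. The shares of all genes past the fold downward were 2.22% in liver and 1.40% in heart. The medians over all genes were -0.02 and 0.03. *Nr4a1*, which encodes an orphan nuclear receptor, measured 13.6 and 2.00 FPKM in liver, *Egr1* 16.5 and 6.40 FPKM in heart, and *Fos* 11.0 and 4.33 FPKM in heart. The medians of the list were -0.32 in spleen, -0.32 in eye and -0.31 in prostate, with 1 gene past the fold downward in each. The downward shares over all genes in these tissues were 1.08%, 0.854% and 0.675%. In testes and MEFs the medians of the list were 0.23 and 0.24. The part of dissection time or handling in the differences of the 10 genes was not tested.

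Markers of other cell types also differed between genotypes, in tissues that differ in how many of the 10 genes were past the fold. Adipocyte markers were higher in KO prostate, where 6 of 6 were past the fold and the sum over 8 markers was 74.4 FPKM in WT and 284 FPKM in KO. They were higher in KO eye in 7 of 7 cases, with sums of 118 and 431 FPKM. *Hsd11b1*, *Pck1* and *Plin4*, which fat also expresses, were past the fold upward in both of these tissues. In heart the same markers were past the fold downward in 5 of 7 cases. The shares over all genes stand beside these counts and the marker counts that follow. They were 2.38% in prostate, 2.62% in eye, 4.89% in spleen and 2.50% in liver upward. Downward they were 1.40% in heart and 2.22% in liver. *Adipoq* measured 21.0 and 9.23 FPKM in heart. The sum over the markers there was 1542 and 1394 FPKM, most of it *Fabp4*, which measured 1392 and 1311 FPKM, within the fold. In liver the sum was 38.2 and 36.5 FPKM, with *Adipoq*, *Plin1* and *Cfd* below the filter. Of the 3 markers that passed there, *Pparg* was past the fold downward, at 14.5 and 7.19 FPKM, and *Fabp4* was higher within the fold, at 21.1 and 27.6 FPKM.

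Skeletal muscle markers were past the fold upward in eye in 8 of 8 cases, summing to 1999 and 3630 FPKM, and downward in heart in 5 of 7 cases. *Tnnt3*, the fast skeletal troponin T, measured 30.3 and 0.786 FPKM in heart. B cell genes counted among the spleen markers were also lower in KO heart, for example *Cd79b* at 12.4 and 5.38 FPKM. Of 7 blood and leukocyte markers in spleen, *Hba-a1* (1087 and 2599 FPKM), *Hba-a2* and *Ly6g* were past the fold upward, *Cd79a*, *Ptprc* and *Emr1* were lower within the fold, and the median change was 0.09. In prostate 3 of 4 were past the fold upward, *Hba-a1*, *Hba-a2* and *Emr1*, and in eye 2 of 4, *Hba-a1* and *Hba-a2*. In heart the nearly identical *Hba-a1* (1351 and 638 FPKM) and *Hba-a2* (542 and 1171 FPKM) differed in opposite directions. In liver 1 of 4 blood and leukocyte markers was past the fold, the macrophage gene *Emr1*, at 8.84 and 14.9 FPKM. The part of these shifts in the differences of the 10 genes was not tested.

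**Figure D5:**
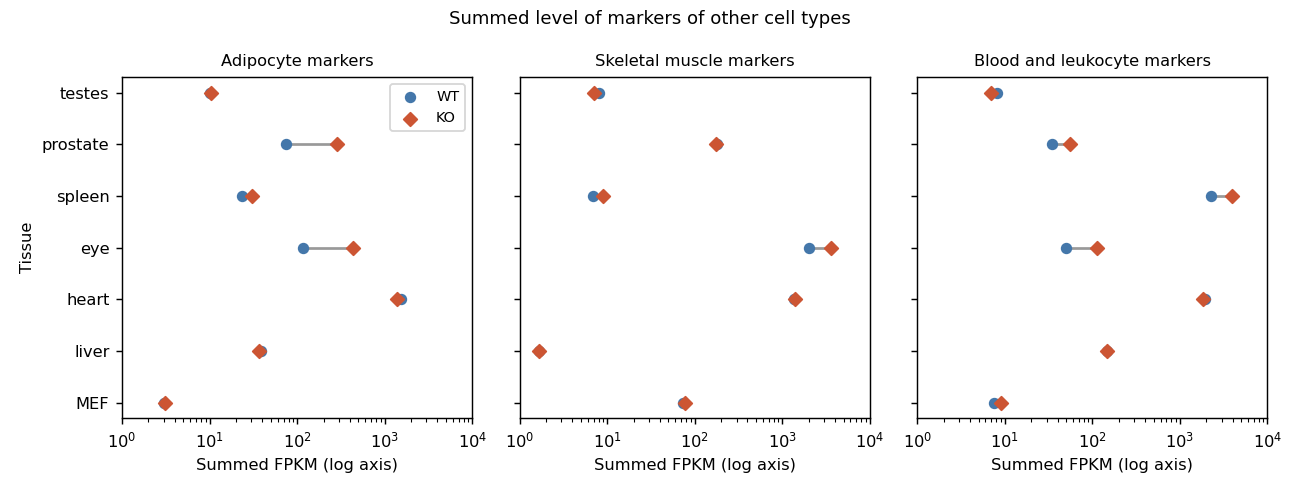
Summed FPKM, on a log axis, of 8 adipocyte, 8 skeletal muscle and 7 blood and leukocyte markers in WT (blue circles) and KO (orange diamonds) of each tissue, without error bars because each group is 1 pooled value. Adipocyte sums are farther apart in prostate (74.4 and 284 FPKM) and eye (118 and 431 FPKM) than in heart (1542 and 1394 FPKM) or liver (38.2 and 36.5 FPKM). The heart sum is mostly *Fabp4* (1392 and 1311 FPKM), while 5 of 7 adipocyte markers there were past the fold downward. The skeletal muscle sum in heart is mostly *Ckm* (1144 and 1294 FPKM), and 5 of 7 of those markers were past the fold downward too.

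Among 8857 other genes with values in all 7 tissues, the 5 whose changes over the tissues were most like the median of the 10 genes were *Arrb2*, *Trmt1l*, *Crem*, *Frmd4b* and *Rc3h1*, with Pearson *r* between 0.976 and 0.983 over 7 tissues. All tissues entered with 1 pooled comparison each. Their changes were small, reaching 0.42 in liver for *Trmt1l*, and none was past the fold in any tissue, so that they shared the order of the tissues and not the size of the differences. Of the genes on the other lists, *Ddit4* had the highest *r*, 0.87, with a Spearman's rho of 0.54. By rho, *Slc39a10* (0.96), *Per1* and *Ciart* (both 0.89) were closer. Between pairs of the 8 members with values in all 7 tissues the median *r* was 0.53, and it was above 0 in 24 of 28 pairs. The 4 other pairs all held *Sgk1*, with *Errfi1*, *Klf9*, *Mt2* and *Mt1*. Genes selected on the same values can be alike for that reason, so nothing is read from these *r*.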

How the data were processed

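RNA-seq data of 42 samples from 7 tissues were analysed, 22 WT and 20 KO, all from male mice or embryos. These are counts of samples, and whether several came from the same mouse is not given in the sources used here. Libraries had been made by the authors from polyadenylated RNA. The submitters' processing notes name CASAVA 1.8.2, TopHat2, Cuffdiff and mm10, and the study's methods describe another route, through STAR and read counts, for the authors' own calls. The deposited table gives FPKM values, 1 per genotype and tissue, pooled over samples by the authors; the unit is that of a Cuffdiff table and is not named in the header. Of the 16 groups named in the table, 2 match no sample and were not analysed here. The authors' fold changes, test statistics, p-values and q-values were not used.

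The change was log2((KO + 0.1)/(WT + 0.1)), among genes with status OK and a mean of at least 1 FPKM. Past the fold means more than 1.5 times. With no value per sample, no test, error or depth could be given; low values showed no steps of whole reads. Members, lists and motifs were chosen with earlier results of these data known. Named were all members, up to 3 genes per other list and tissue with the greatest change past the fold, *Nr3c1*, *Nr3c2*, *Hsd11b1*, *Hsd11b2*, the 5 most similar genes and *Tug1*. *Tat*, *G6pc*, *Nfil3*, *Dusp1*, *Dbp*, *Nr1d1*, *Tgm4*, *Serpina1a* and *Pck1* in liver were named after their values were seen. Also named outside the rule were *Hsp90ab1*, *Ptges3*, *Ptprc*, *Per1*, *Slc39a10*, *Gclc*, *Mt3*, *Mtf1*, *Slc30a1*, *Ccl2*, *Ccl5*, *Cxcl10* and *Il6*. Some genes that met the rule in 1 tissue were also described in others. *Adgre1* and *Ciart* were found under older symbols, and *Cebpd*, *Hbb-b1* and *Hbb-b2* were not matched. Gene positions are from GENCODE vM21, promoters from RefSeq. Calculations used Python 3.11.15, numpy 2.4.6 and pandas 2.3.3 and were tested on simulated data.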

Additional observations from a re-analysis of the deposited data

How the results depend on the processing

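No paired analysis was possible because the table holds 1 pooled value per group. For the same reason no sample could be left out, a change was called moved when it shifted by more than 0.1 in log2, and a count when it shifted by more than 1.5 times. Of 63 counts of members past the fold under other settings, 55 stayed within that limit. The other 8 came from the fold limit itself. At 2 times the counts were 0 in prostate, 0 in eye, 2 in spleen and 3 in heart, and at a lower limit of 0.32 in log2 they were 6 in prostate, 6 in eye, 1 in testes and 1 in MEFs. Of 49 median changes, 44 stayed. The median in spleen was 0.52 both with no filter and with a mean of at least 5 FPKM. The median in liver was 0.79 with a pseudocount of 1, 0.82 with a mean of at least 5 FPKM, and 1.14 with values rescaled to a common sum. That rescaling shifted the median of all genes in liver by 0.16, which accounts for that move. Of 461 changes of single members 439 stayed, and none past the fold turned in direction. Under the 2 scaling alternatives only *Mt1* in testes, *Errfi1* in testes and prostate, and *Sgk1* in spleen turned, each within 0.08 of 0. With values as deposited the place of MEFs in the order of tissues moved for *Sgk1* alone. By Spearman's rho the 5 most similar genes stayed among the top 100. Pooled values limit all of these results: a difference that 1 sample of a group carries cannot be told from one that all samples share.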
